A study of Homo sapiens with 2 samples.

Results

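The genes of mitochondrial ribosomal proteins are those whose symbols start with MRPL, for the large subunit of the mitochondrial ribosome, or MRPS, for the small subunit. All symbols of this form were taken, pseudogenes were left out, and the row with the highest mean was used for each symbol, which gave 76 genes (47 MRPL and 29 MRPS) of 16424 listed. The human hepatoma line PLC/PRF/5 was studied by cap analysis of gene expression (CAGE), in which each tag marks the 5′ end of 1 capped RNA. M2BPGi is a glycosylated form of Mac-2 binding protein, a secreted protein measured in serum as a marker of liver fibrosis. The first group was non-treated cells (0 µg/ml) and the second was cells kept with 3 µg/ml M2BPGi, both collected at 6 h, and the comparison asks which genes differ with M2BPGi. Each group had 1 library, so no difference has a replicate check and no test of the conditions was possible.

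The mitochondrial ribosome translates the few mRNAs of the mitochondrial genome, which encode core subunits of the respiratory chain and of the ATP synthase. Its RNAs are made inside the organelle, while all its proteins are encoded in the nucleus, translated in the cytosol and imported into mitochondria, in which liver cells are rich. Some of these proteins have a counterpart in the bacterial ribosome, and others are specific to mitochondria.

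Levels are given in CPM, the tags of a gene scaled to the total tags of its library. Since CAGE gives 1 tag per RNA start whatever the length of the RNA, levels of different genes can be set side by side without scaling to length. The steps between low values placed the depth of the non-treated library at 24040209 tags and that of the treated library at 24862941 tags, so that 1 tag was worth 0.0416 and 0.0402 CPM. A count of 0 (up to 3 tags) would allow 0.125 and 0.121 CPM, and every mitochondrial ribosomal protein gene was far above this. The label of the cells was checked on hepatocyte and hepatoma markers. AFP, the fetal serum protein made by many hepatomas, had 695 CPM without and 566 CPM with M2BPGi, and pairs of levels are given in this order throughout. SERPINA1 had 671 and 455 CPM, and ALB had 8.82 and 7.04 CPM. KRT18 and HNF4A were higher, with 1250 and 1592 CPM and with 39.1 and 43.8 CPM. Of all 11 such markers, 8 were lower and 3 higher in the treated library, with a median log2 ratio of -0.29. The share higher was 27.3%, against 42.9% of all genes with a mean of at least 1 CPM. At least 20% lower were 4 (36.4%), against 18.4% of all these genes. Of the markers of other cell types, PTPRC was at 0 in both libraries, COL1A1 had 0.67 and 0.76 CPM, and COL3A1 had 4.53 and 3.42 CPM. The part of these markers in the values below was not tested, and in bulk RNA a change in the cells present and a change in the RNA per cell cannot be told apart.

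All 76 genes had a mean of at least 1 CPM, the level set for comparison, which 13724 of the listed genes reached. The lowest mean was 9.56 CPM, the median 103 CPM and the highest 747 CPM, while the median of all genes compared was 20.9 CPM. A mean of at least 100 CPM was found for 41 of the 76 genes, and 2 genes, MRPL35 and MRPS31, were under 10 CPM. MRPL52 had the highest level in both libraries, with 639 and 855 CPM. Next were MRPL41 with 328 and 375 CPM and MRPL33 with 329 and 311 CPM. MRPS12, the counterpart of the bacterial decoding-centre protein S12, had the highest mean of the MRPS genes with 277 and 323 CPM, although MRPS15 was higher without M2BPGi (282 and 297 CPM), and MRPL23, at the exit of the peptide tunnel, had 255 and 342 CPM. The mean levels of the most and the least abundant of the 76 genes differed 78.2-fold, although nearly all their products are parts of the same particle. The order of the genes by level was almost the same in both libraries (Spearman rho 0.978 across 76 genes, which share the 2 libraries and are not independent replicates).

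**Figure D1:**
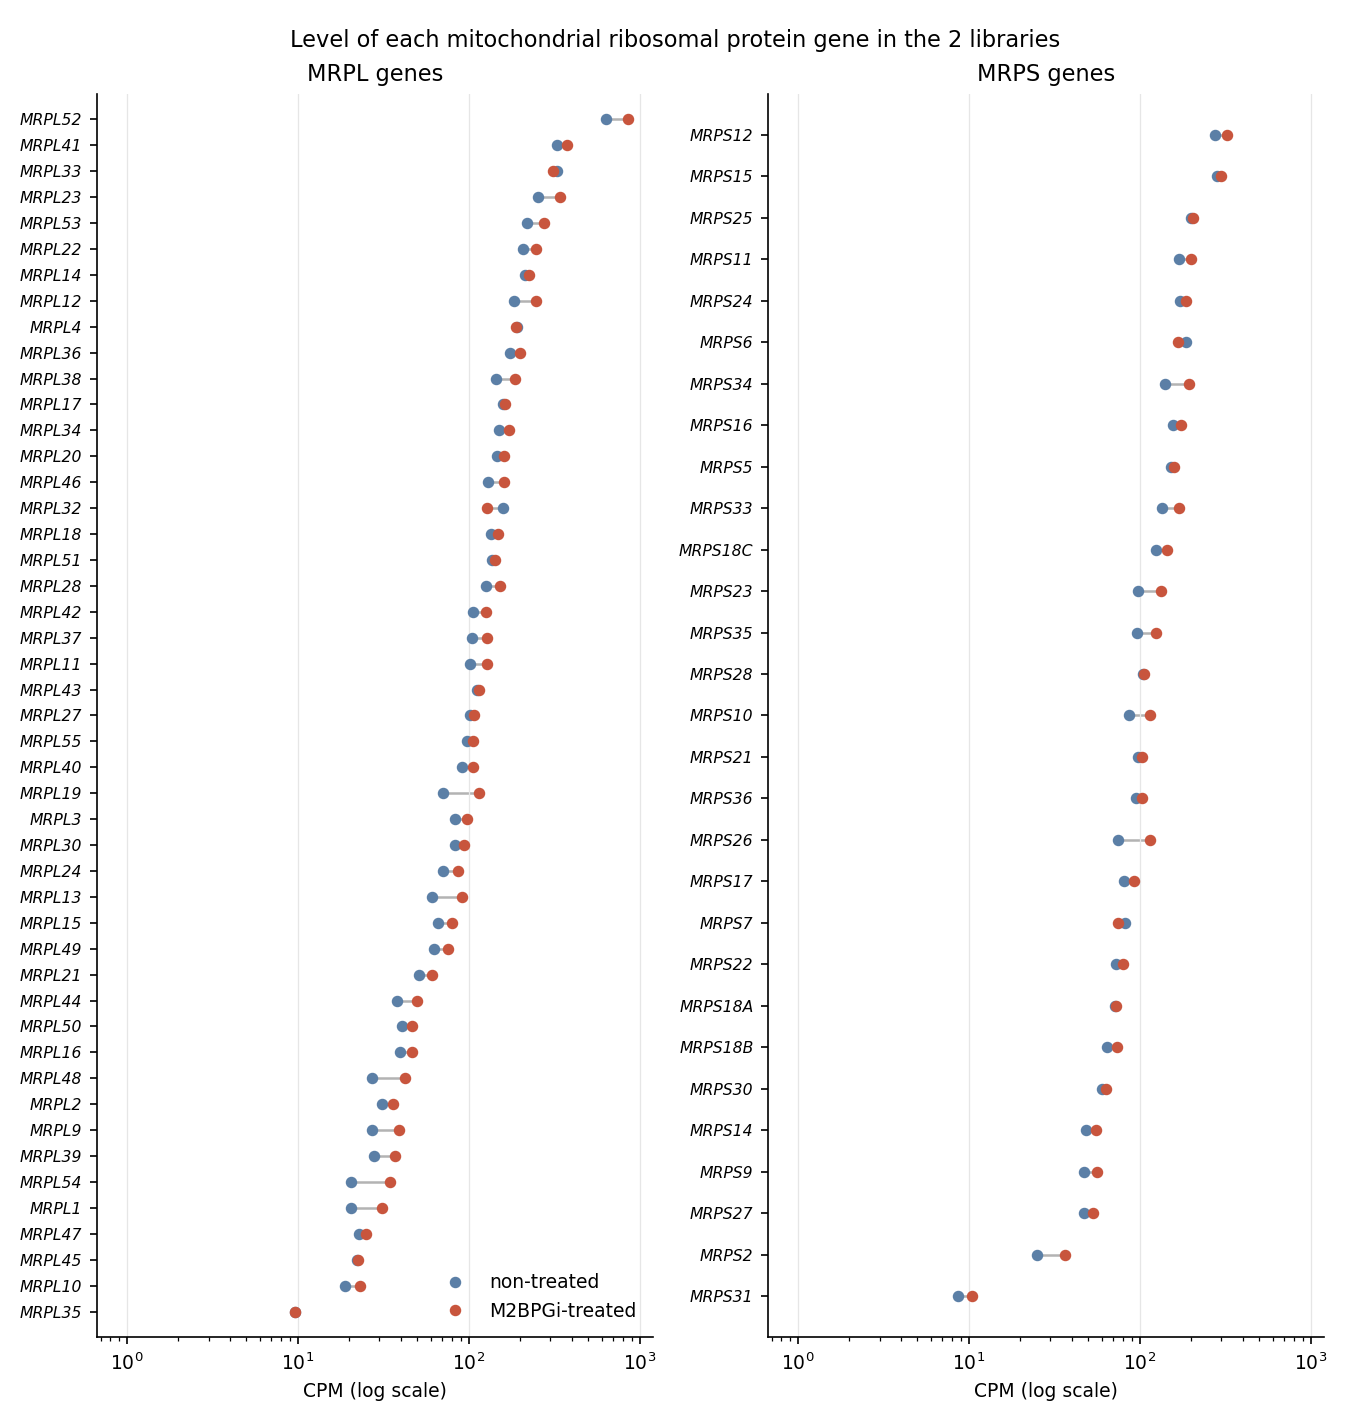
Levels of the 47 MRPL and 29 MRPS genes in CPM on a log axis, with 1 point for the non-treated and 1 for the M2BPGi-treated library, joined by a line and ordered by mean level. The point of the treated library lies to the right for 70 genes and to the left for 6.

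Most of these genes were higher in M2BPGi-treated than in non-treated cells. The difference is given as a log2 ratio, the treated over the non-treated library after adding 1 CPM to both, which understates the ratio of low genes. It was above 0 for 70 of the 76 genes, against 42.9% of the 13724 genes compared. The median log2 ratio was 0.21, with quartiles of 0.10 and 0.34 and a range of -0.29 to 0.71, beside a median of -0.05 over all genes compared. Of the 76 genes, 21 were higher by at least 25% on this scale, a share of 27.6%, against 9.04% of all genes compared. Lower by the same fold, which is at least 20%, were 0 of the 76, against 18.4% of all. Past 1.5-fold higher were 5, against 1.60% of all, and 0 were past 1.5-fold lower, against 4.04% of all. The background itself depends on how the libraries are scaled. As deposited, 1240 genes lay at least 25% higher and 2532 at least 20% lower, while after a rescaling that gives all genes a median of 0 they were 1733 and 1929. After it, 27 mitochondrial ribosomal protein genes were at least 25% higher (35.5%), against 12.6% of all genes compared. Above 0 were 72 of the 76, against 50% of all genes compared, a share that the rescaling itself sets.

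**Figure D2:**
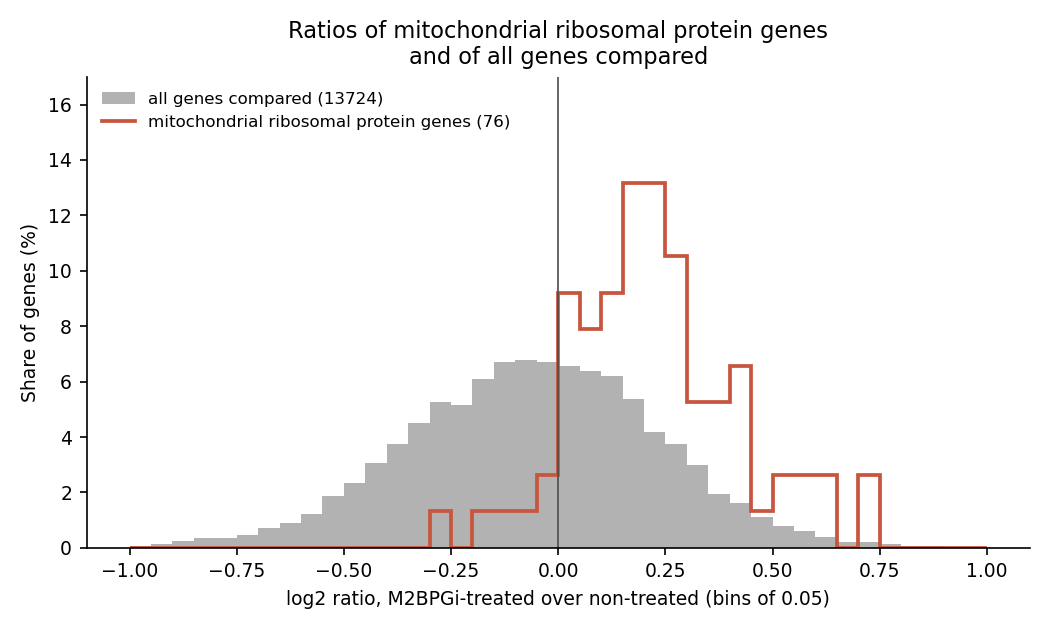
Share of genes in percent by log2 ratio of the treated over the non-treated library in bins of 0.05, filled for the 13724 genes compared and outlined for the 76 mitochondrial ribosomal protein genes. The outline is centred to the right of 0 with its median at 0.21, and the filled shape is centred at -0.05, with 92 genes beyond the limits of 1 on either side not drawn.

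Together the 76 genes had 8895 CPM without and 10338 CPM with M2BPGi, a sum 16.2% higher. As a share of all listed values this was 0.945% and 1.10%. The log2 ratio of the sums was 0.22, with a 95% interval of 0.21 to 0.23. This and all later intervals are exact Clopper-Pearson intervals of the tag ratio at the depths above, without an added CPM. They cover counting error only, not the spread between cultures, and PCR copies of a molecule are not independent. Genes with a higher CPM in the treated library gained 1521 CPM in all, and the others lost 78.4 CPM. MRPL52 alone gained 215.9 CPM, which was 15.0% of the net gain. The next largest gains were those of MRPL23, MRPL12, MRPL53 and MRPS34, and these 5 genes together gained 481 CPM. The sum was therefore weighted towards a few abundant genes, whereas the median of 0.21 counts each gene once.

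Split by symbol, MRPL and MRPS genes lay in the same direction. The 47 MRPL genes had a median log2 ratio of 0.24, with 43 higher (91.5%), 4 lower and 14 at least 25% higher (29.8%). The 29 MRPS genes had a median of 0.19, with 27 higher (93.1%), 2 lower and 7 at least 25% higher (24.1%). Of all genes compared, 42.9% were higher and 9.04% at least 25% higher. Summed levels were 5638 and 6649 CPM for MRPL genes (log2 ratio 0.24, interval 0.23 to 0.25) and 3257 and 3688 CPM for MRPS genes (0.18, interval 0.17 to 0.19). The intervals of the 2 sums do not overlap, and the difference between the medians was not tested. The symbol is not always the place, since the products of MRPS18A and MRPS30 sit in the large subunit and that of MRPS36 belongs to the 2-oxoglutarate dehydrogenase complex. By place, the median was 0.24 for 49 large-subunit genes and 0.19 for 26 small-subunit genes. The log2 ratios of their sums were 0.23 (interval 0.22 to 0.24) and 0.19 (interval 0.17 to 0.20).

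The highest ratio was that of MRPL54 (ENSG00000183617), which encodes a large-subunit protein specific to mitochondria. It had 20.6 CPM without and 34.4 CPM with M2BPGi, a log2 ratio of 0.71 with an interval of 0.58 to 0.90. MRPL19 (ENSG00000115364), the counterpart of bacterial L19, had 70.4 and 115 CPM, also 0.71 with a narrower interval of 0.63 to 0.80. The intervals of these 2 genes overlap, as do those of all 8 genes named here. Overlap does not by itself show that 2 ratios are alike, and the differences were not tested. The 8 genes are given in the order of their ratios. MRPL48, of the central protuberance, followed with 27.2 and 42.6 CPM (0.63, interval 0.51 to 0.79). MRPS26, a small-subunit protein specific to mitochondria, had 74.5 and 115 CPM (0.62, interval 0.54 to 0.71). MRPL1, the protein of the L1 stalk beside the exit site for tRNA, had 20.3 and 31.2 CPM (0.59, interval 0.45 to 0.78). These 5 genes are the ones past 1.5-fold, and all but MRPL19 and MRPS26 had levels under 50 CPM. MRPL13 had 61.1 and 91.2 CPM (0.57, interval 0.48 to 0.67). MRPS2, the counterpart of bacterial S2, had 25 and 36.6 CPM (0.53, interval 0.40 to 0.70). MRPL9 had 27.3 and 39.1 CPM (0.51, interval 0.38 to 0.67). For each of these 8 genes the whole interval lay above 0.32, the log2 value of a level 25% higher.

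At the other end, MRPL32 (ENSG00000106591) had the lowest ratio. Its product is processed by the m-AAA protease of the inner membrane before it joins the large subunit. It had 158 CPM without and 129 CPM with M2BPGi, a log2 ratio of -0.29 with an interval of -0.36 to -0.23. MRPS6 (ENSG00000243927) had 186 and 167 CPM (-0.16, interval -0.22 to -0.10). MRPS7, whose bacterial counterpart organises the head of the small subunit, had 82.1 and 74.7 CPM (-0.13, interval -0.23 to -0.04). MRPL33 had 329 and 311 CPM (-0.08, interval -0.13 to -0.04). In these 4 genes the interval lay below 0, but none was at least 20% lower. After the rescaling above, the intervals of MRPL32 and MRPS6 were still below 0, while those of MRPL33 (-0.07 to 0.02) and MRPS7 (-0.17 to 0.01) included it. MRPL4 had 192 and 188 CPM, and its log2 ratio of -0.03 (interval -0.09 to 0.03) became 0.03 after the rescaling above. MRPS18A had 71.8 and 72.6 CPM (0.01, interval -0.08 to 0.11), MRPS28 had 104 and 106 CPM (0.02, interval -0.06 to 0.10) and MRPL45 had 22.2 and 22.6 CPM (0.02, interval -0.15 to 0.20). A difference was not detectable at this depth in these last 4 genes. MRPL35, the sixth gene with a ratio below 0, had 9.65 and 9.61 CPM (-0.01, interval -0.27 to 0.26), and its ratio was 0.05 after the rescaling.

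**Figure D3:**
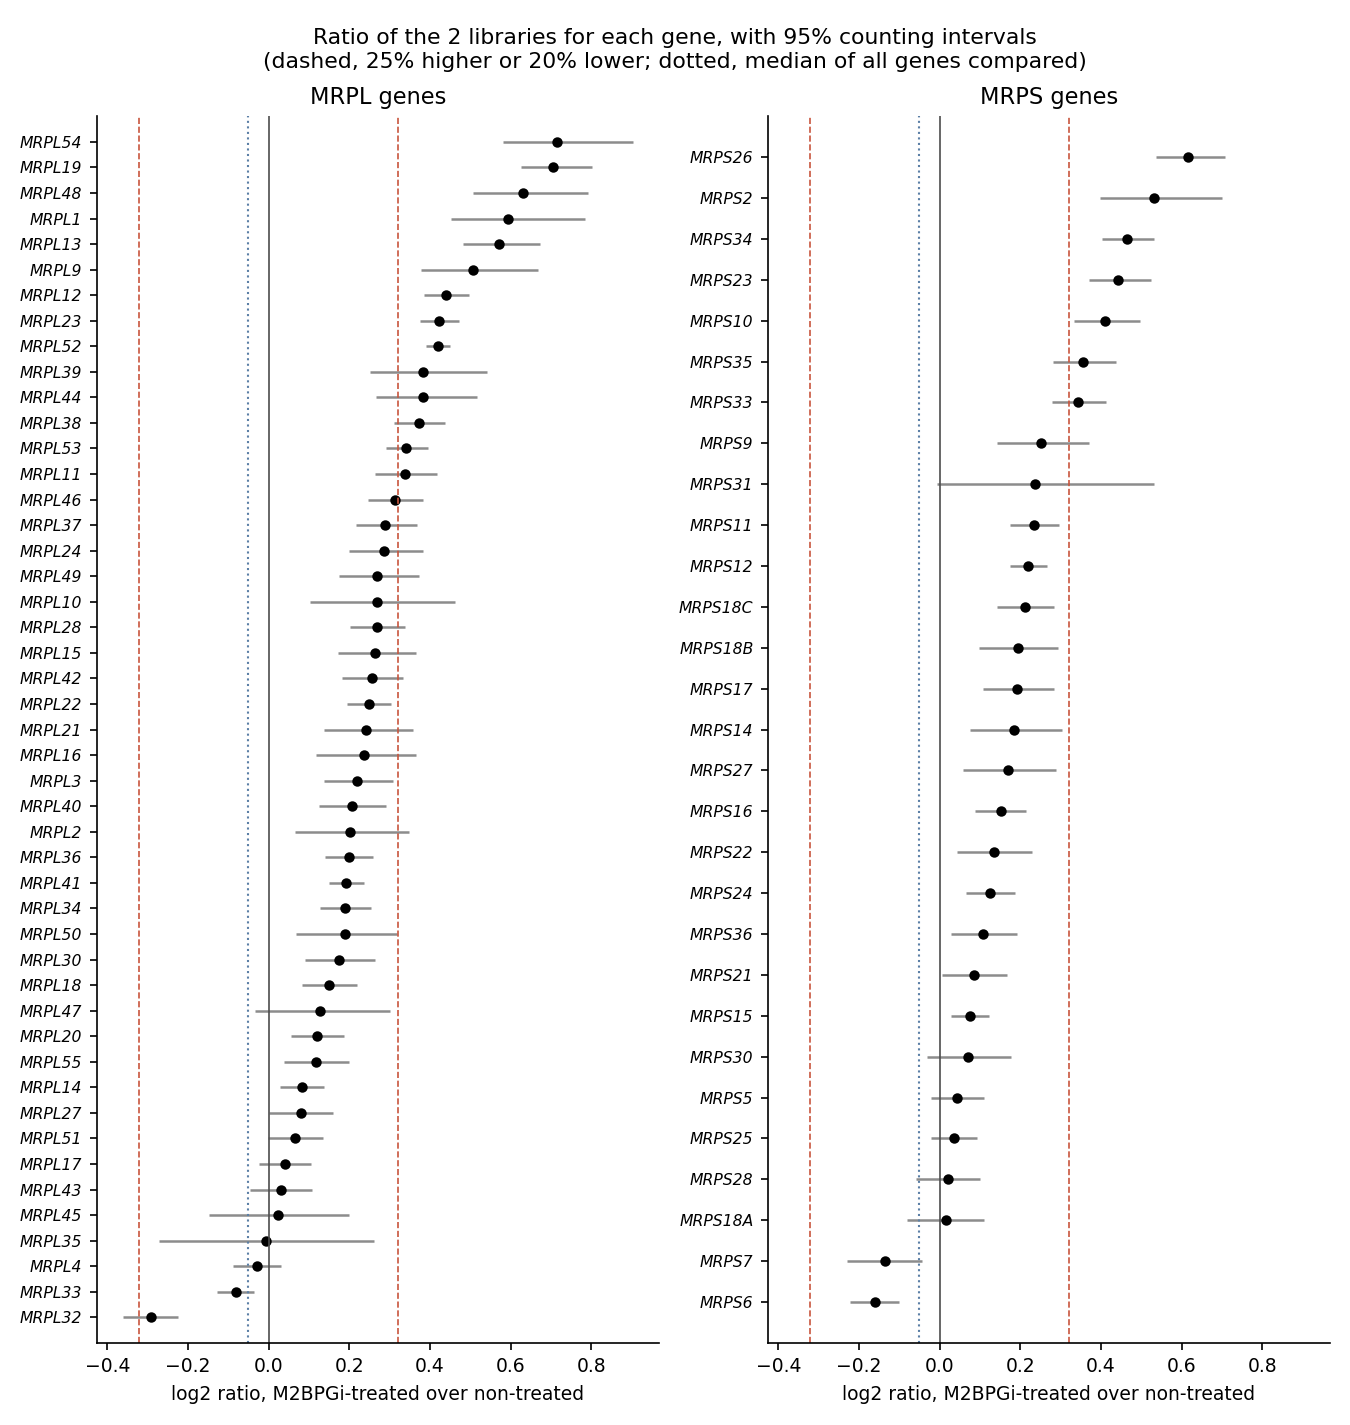
Log2 ratio of the treated over the non-treated library for each MRPL and MRPS gene, with points after adding 1 CPM, 95% counting intervals of the tag ratio as bars, levels 25% higher and 20% lower as dashed lines and the median of all genes compared as a dotted line. MRPL54 and MRPL19 lie highest at 0.71, MRPL32 lowest at -0.29, and no point reaches the line at 20% lower.

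By place in the ribosome, all genes of the stalk, the tunnel exit and the central protuberance had a ratio above 0. For MRPL17, MRPL45 and MRPL47, all at the tunnel exit, the interval included 0 as deposited. The stalk, where translation factors bind, was represented by MRPL10, MRPL11 and MRPL12. MRPL12 had 183 and 249 CPM (0.44, interval 0.39 to 0.50). MRPL11 had 101 and 128 CPM (0.34, interval 0.26 to 0.42), and MRPL10 had 18.9 and 23.0 CPM (0.27, interval 0.10 to 0.46). All 3 were higher, with a median of 0.34. The value of MRPL12 is not its own, however, since SLC25A10, a mitochondrial carrier gene on the same strand, is listed with the same 183 and 249 CPM, and the tags of these 2 genes cannot be told apart.

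At the tunnel exit, where new peptides leave the large subunit, the median of 6 genes was 0.19. Only 1 of them was at least 25% higher, a share of 16.7%, against 9.04% of all genes compared. This gene was MRPL23, whose levels are given above (0.42, interval 0.38 to 0.47). MRPL24 had 71.1 and 87.0 CPM (0.29, interval 0.20 to 0.38) and MRPL22 had 208 and 247 CPM (0.25, interval 0.20 to 0.30). MRPL47, the counterpart of bacterial L29, had 22.9 and 25.1 CPM (0.13, interval -0.03 to 0.30). MRPL17 had 159 and 164 CPM (0.04, interval -0.02 to 0.10). Together with MRPL45, which anchors the ribosome at the inner membrane, these last genes had intervals that include 0. After the rescaling above, the interval was 0.02 to 0.36 for MRPL47 and 0.03 to 0.16 for MRPL17, so that MRPL45 alone of the 6 genes had an interval that included 0 under both scalings.

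The central protuberance, at the top of the large subunit, had 7 genes with a median of 0.31. At least 25% higher were 3 of them, a share of 42.9%, against 9.04% of all genes compared. Besides MRPL48, these were MRPL52 (0.42, interval 0.39 to 0.45) and MRPL38, with 144 and 187 CPM (0.37, interval 0.31 to 0.44). MRPL46 had 129 and 161 CPM (0.31, interval 0.25 to 0.38). MRPL40 had 91.2 and 105 CPM (0.21, interval 0.13 to 0.29). The counterparts of bacterial proteins in this group had the smallest ratios, with 134 and 149 CPM for MRPL18 (0.15, interval 0.08 to 0.22) and 102 and 108 CPM for MRPL27 (0.08, interval 0.00 to 0.16). Both intervals overlap that of MRPL40, which does not by itself decide the order, and the differences were not tested.

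Grouped by origin, the 27 genes of proteins specific to mitochondria had a median log2 ratio of 0.29. All 27 had a ratio above 0, against 42.9% of all genes compared. However, the intervals of MRPL45, MRPL43, MRPL51, MRPS25, MRPS30 and MRPS31 included 0 as deposited. After the rescaling above, that of MRPL45, the lowest, was the only interval of these to include 0. At least 25% higher were 12 of them (44.4%), against 9.04% of all genes compared. The 47 genes with a bacterial counterpart had a median of 0.19, with 41 above 0, 6 below 0 and 9 at least 25% higher (19.1%). All 6 genes below 0 were thus of the second kind, and the intervals of MRPL4 and MRPL35 among them included 0. MRPL55 and MRPS36 were placed in neither list, and the difference between the lists was not tested. The 3 genes related to bacterial S18 are close relatives. MRPS18C had 125 and 145 CPM (0.21, interval 0.14 to 0.28) and MRPS18B had 64.2 and 73.5 CPM (0.19, interval 0.10 to 0.29). For MRPS18A, with its product in the large subunit, the ratio was 0.01, as given above, and its interval overlaps that of MRPS18B but not that of MRPS18C. The differences between these 3 genes were not tested.

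Other proteins of the same particle carry no MRPL or MRPS symbol in these data. Of 7 such genes, 5 were higher, 2 were lower and the median log2 ratio was 0.20. ICT1, a peptidyl-tRNA hydrolase built into the large subunit, had 19.2 and 25.7 CPM (0.41, interval 0.25 to 0.60). GADD45GIP1 had 190.1 and 227 CPM (0.26, interval 0.20 to 0.32), and AURKAIP1 had 260.1 and 303 CPM (0.22, interval 0.17 to 0.27). CHCHD1 had 84.4 and 97.2 CPM (0.20, interval 0.12 to 0.29), and MRP63, the older symbol of MRPL57, had 316 and 349.8 CPM (0.15, interval 0.10 to 0.19). PTCD3, an RNA-binding protein of the small subunit, was lower with 128 and 112 CPM (-0.19, interval -0.26 to -0.11). DAP3, a GTP-binding protein of the small subunit, had 98.0 and 96.1 CPM (-0.03, interval -0.11 to 0.06). After the rescaling above, its ratio was 0.03 (interval -0.05 to 0.11), so that 6 of the 7 were above 0 and a difference was not detectable for DAP3.

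The genes that build the ribosome or work with it had medians nearer 0, and the difference from its subunits was not tested. Of 25 assembly factor genes, 15 were higher and 10 lower, with a median log2 ratio of 0.05, with 2 at least 25% higher and 2 at least 20% lower, a share of 8% each, against 9.04% and 18.4% of all genes. ERAL1, a chaperone of the small-subunit RNA, had 25.2 and 35.6 CPM (0.48, interval 0.35 to 0.65), and NGRN had 218 and 274 CPM (0.33, interval 0.28 to 0.38). MPV17L2 had 25.3 and 15.1 CPM (-0.71, interval -0.94 to -0.56), and METTL17 had 103 and 81.5 CPM (-0.33, interval -0.42 to -0.25). Of 14 translation factor genes, 7 were higher and 7 lower (median 0.04). After the rescaling above, 18 assembly factor genes were higher and 7 lower, METTL17 (-0.27) was no longer at least 20% lower, and 8 translation factor genes were higher and 6 lower. TACO1, an activator of the translation of cytochrome oxidase subunit I, had 24.7 and 37.5 CPM (0.58, interval 0.45 to 0.75), and TSFM, an elongation factor, had 34.8 and 42.7 CPM (0.29, interval 0.16 to 0.43). GFM1, another elongation factor, had 66.4 and 56.7 CPM (-0.22, interval -0.33 to -0.12), and MTRF1L, a release factor, had 103 and 88.9 CPM (-0.22, interval -0.30 to -0.14). The 17 genes of mitochondrial aminoacyl-tRNA synthetases had a median of 0.06, with 12 higher and 5 lower, from YARS2 (0.33) and LARS2 (0.16) to IARS2 (-0.24) and EARS2 (-0.25) among those with a mean of at least 10 CPM.

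Of 12 genes that regulate nuclear genes for mitochondrial proteins or act on mitochondrial DNA, 4 were higher and 8 lower, with a median of -0.10. GABPB1, a subunit of an ETS-family factor, had 18.6 and 25.5 CPM (0.43, interval 0.28 to 0.63), while GABPA, its DNA-binding partner, had 27.9 and 24.7 CPM (-0.17, interval -0.34 to -0.02). GABPB1 was the 1 gene of the 12 at least 25% higher, a share of 8.33%, against 9.04% of all genes. SP1 had 23.6 and 19.9 CPM (-0.24, interval -0.42 to -0.07), and PPARGC1A, a coactivator, had 40.2 and 36.4 CPM (-0.14, interval -0.27 to -0.01). Of the genes that act on mitochondrial DNA, TFB2M had 23.3 and 19.8 CPM (-0.22, interval -0.41 to -0.06), POLRMT, the RNA polymerase, had 55.2 and 49.7 CPM (-0.15, interval -0.27 to -0.04) and TFAM had 69.3 and 66.0 CPM (interval -0.17 to 0.03). After the rescaling above, the intervals of GABPA, PPARGC1A, TFB2M and POLRMT included 0, that of SP1 remained below it, and the ratio of YY1, with 48.7 and 46.9 CPM (-0.05, interval -0.17 to 0.06), became 0.00, so that 5 of the 12 were above 0. NRF1 had 5.28 and 4.30 CPM (interval -0.68 to 0.09) and MYC had 31.4 and 32.4 CPM (interval -0.10 to 0.19). ESRRA had 31.8 and 33.2 CPM (interval -0.08 to 0.21) and PPRC1 had 17.2 and 18.4 CPM (interval -0.10 to 0.29). A difference was not detectable at this depth in these 4 genes, in YY1 or in TFAM.

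Among lists of a similar kind, the mitochondrial ribosomal protein genes were not alone in lying above 0. For the 21 genes of mitochondrial protein import the median was 0.16 with 18 higher, from TIMM9 (0.52) and TIMM50 (0.34) to PMPCA (-0.26) and PMPCB (-0.27), the subunits of the peptidase that removes import signals. The 37 nuclear genes of respiratory complex I had a median of 0.20, with 34 higher and 7 at least 25% higher. The 76 cytosolic ribosomal protein genes other than RPS6 had a median of 0.30, with 72 higher and 36 at least 25% higher. The share at least 25% higher was thus 47.4% for cytosolic ribosomal proteins, 27.6% for mitochondrial ribosomal proteins, 18.9% for complex I and 9.52% for import, beside 9.04% of all genes. After the rescaling above, these shares were 57.9%, 35.5%, 32.4% and 19.0%, beside 12.6% of all genes, and the differences were not tested.

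**Figure D4:**
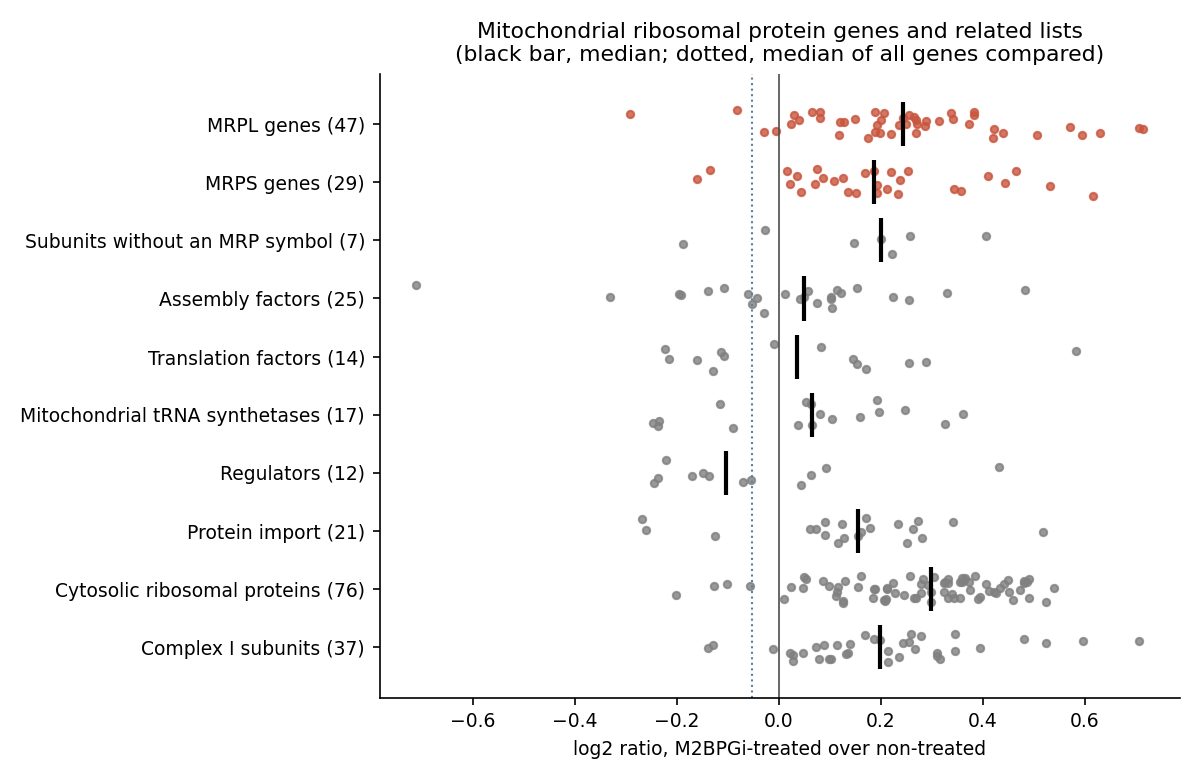
Log2 ratio of the treated over the non-treated library for every compared gene of 10 lists, with 1 point per gene (the vertical scatter carries no value), the median of each list as a black bar and the median of all genes compared as a dotted line. The MRPL and MRPS medians of 0.24 and 0.19 lie near those of complex I (0.20) and import (0.16), below that of cytosolic ribosomal proteins (0.30) and above those of assembly and translation factors (0.05 and 0.04).

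Mitochondrial ribosomal protein genes make short and abundant RNAs, and both properties went with a higher ratio over all genes. Of the 76 genes, 74 were found by identifier in the GENCODE v29 annotation, with a median longest transcript of 1516 nt, against 2965 nt over all genes compared. Genes with transcripts up to 1516 nt had a median log2 ratio of 0.04 (2676 genes) and those with longer transcripts -0.07 (10595 genes). Across all 13271 genes with a length, the ratio and the length had a Spearman rho of -0.17, but across the 74 mitochondrial ribosomal protein genes it was 0.03. By level, the median of all genes was -0.11 at 1 to 10 CPM, -0.05 at 10 to 100 CPM and 0.10 at 100 CPM or more. Within the mitochondrial ribosomal protein genes it was 0.24 at 10 to 100 CPM (33 genes) and 0.19 at 100 CPM or more (41 genes).

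With length and level combined, the standing of the mitochondrial ribosomal protein genes depended on the class. Among short transcripts (up to 1516 nt) at 100 CPM or more, the 21 mitochondrial ribosomal protein genes had a median of 0.15 and 5 were at least 25% higher, a share of 23.8%, while the other 593 genes of this class had a median of 0.20 and a share of 24.6%. Of the 21, 85.7% were higher, against 81.1% of the 593. Without the cytosolic ribosomal protein and complex I genes, 527 other genes were left, with a median of 0.19, and 22.8% of them were at least 25% higher. In this class the shares of mitochondrial ribosomal protein genes were close to those of other genes and their median was slightly lower. Among short transcripts at 10 to 100 CPM, all 15 were higher (median 0.26), against 58.0% of 949 other genes (median 0.06). Of these 15, 40% were at least 25% higher, against 14.3% of the others. Among longer transcripts at 10 to 100 CPM, 16 of 17 were higher (median 0.19), against 39.1% of 6388 others (median -0.07). At least 25% higher were 23.5%, against 5.67%. Among longer transcripts at 100 CPM or more, 18 of 19 were higher (median 0.25), against 51.8% of 1219 others (median 0.02). At least 25% higher were 31.6%, against 10.2%. In these 3 classes the medians lay above those of the other genes. The part of length and level in the ratios was not tested further.

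**Figure D5:**
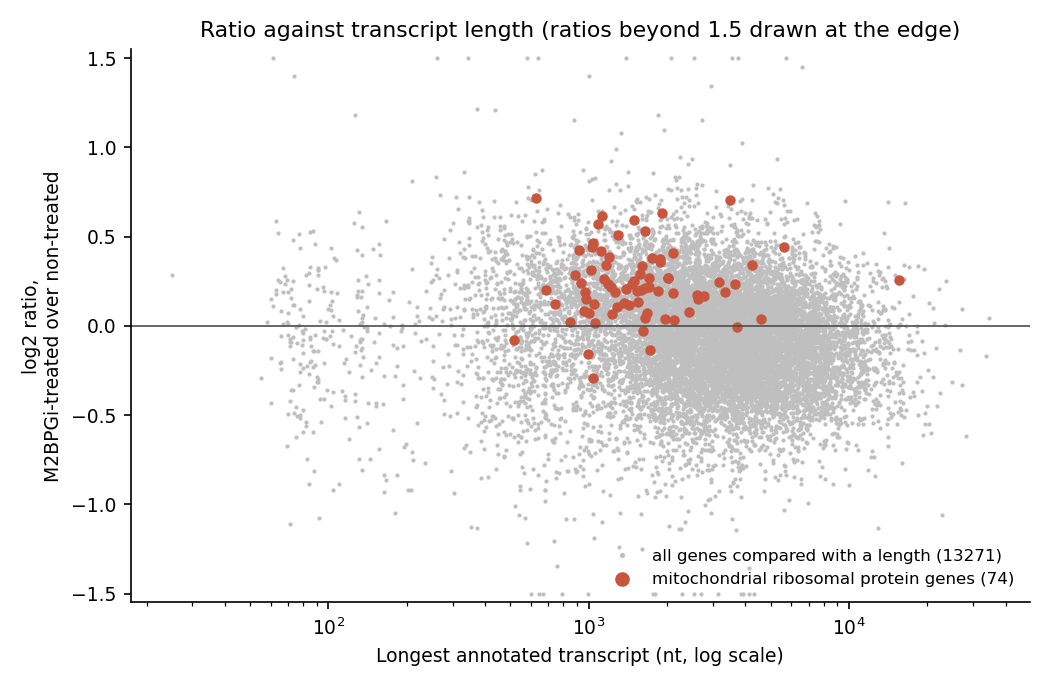
Log2 ratio of the treated over the non-treated library against the longest annotated transcript in nt on a log axis, as small grey points for 13271 genes and large points for 74 mitochondrial ribosomal protein genes, with 26 ratios beyond 1.5 on either side drawn at the edge. The grey points drift down towards long transcripts (rho -0.17), and the large points show no such drift (rho 0.03).

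The genes are scattered over the genome, with 74 placed on 21 chromosomes and at most 8 on 1 of them, chromosome 2. Many start close to a neighbour that is read in the opposite direction. A protein-coding neighbour that starts within 1000 bp upstream on the other strand was annotated for 16 of the 74 genes, or 21.6%, against 10.7% of 11316 protein-coding genes compared. MRPL46 and MRPS11 form such a pair themselves, with starts 34 bp apart. MRPS11 had 170.4 and 201 CPM (0.23, interval 0.18 to 0.30), so both sides of this pair were higher. Of 12 other neighbours that could be compared, 4 were higher and 8 lower, so that 33.3% were higher, against 42.9% of all genes compared. Their median log2 ratio was -0.21, while their 12 partners had a median of 0.19, a difference that was not tested. The 4 higher neighbours had means of at least 71.7 CPM. All the lower ones but MITD1 (89.6 CPM) had means of at most 22.2 CPM. No counting intervals were computed for these neighbours, and the part of level in their ratios was not tested. MRPL52 starts 59 bp from SLC7A7, which had 25.7 and 18.6 CPM (-0.45). MRPS34, 52 bp from EME2, had 140.3 and 194 CPM (0.46), and EME2 had 4.87 and 3.26 CPM (-0.46). MRPL21, 7 bp from IGHMBP2, had 51.2 and 60.8 CPM (0.24), and IGHMBP2 had 15.7 and 9.73 CPM (-0.64). Both genes were higher in 3 of the 12 pairs. These were MRPL18 and TCP1, 63 bp away, with 178 and 216 CPM for TCP1 (0.28), MRPL36 with 175 and 200.4 CPM (0.20) and NDUFS6, a complex I gene 34 bp away, with 314 and 391 CPM (0.32), and MRPL47 and NDUFB5, another complex I gene 36 bp away, the latter with 63.9 and 79.5 CPM (0.31). For MRPL32, the lowest gene, the neighbour 26 bp away, listed as DKFZP686D09174, had 196 and 236 CPM (0.27). The pairs were chosen for description after their values were seen.

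Promoter windows of 300 bases, from 250 before to 50 after the first listed start of a gene, were available from RefSeq (GRCh38.p14) for 67 of the 76 genes and for 8799 genes compared. They were searched on both strands for the core letters of motifs known from nuclear genes for mitochondrial proteins, which are CGCANGCG for NRF1, CCGGAAG for ETS factors and AAGATGGC for YY1. The ETS letters were in 28 of the 67 windows (41.8%), against 20.7% of genes compared and 10.7% of all 27305 windows. The YY1 letters were in 20 (29.9%), against 5.96% and 3.03%. The NRF1 letters were in 12 (17.9%), close to the 20.4% of genes compared, beside 10.6% of all windows. At least 1 of these motifs was in 45 of the 67 windows, or 67.2%, against 39.9% of genes compared. GGGCGG, the SP1 letters, was in 41 windows (61.2%, against 71.8% of genes compared), CCAAT in 20 (29.9%, against 37.4%) and TATAAA in 2 (2.99%, against 5.03%). A match is a description of letters and not of a bound site.

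Ratios were set beside the presence of each motif, without a test. The 45 genes with any of the NRF1, ETS or YY1 letters had a median log2 ratio of 0.21, as did the 22 without. Genes with the ETS letters had a median of 0.22 and those without 0.19. With and without the YY1 letters the medians were 0.18 and 0.23, and with and without the NRF1 letters 0.20 and 0.21. The widest of these gaps was at CCAAT, with medians of 0.16 with and 0.25 without, leaving aside TATAAA, which had 2 genes. With and without the SP1 letters the medians were 0.19 and 0.23. The windows of the highest 2 genes, the lowest 2 and the most abundant one are printed to show this spread, in lower case with NRF1, ETS and YY1 matches in capitals, on the plus strand of their chromosomes. They are chr19:3762432-3762731 for MRPL54, chr2:75646533-75646832 for MRPL19, chr7:42932126-42932425 for MRPL32, chr21:34073328-34073627 for MRPS6 and chr14:22829637-22829936 for MRPL52.
MRPL54: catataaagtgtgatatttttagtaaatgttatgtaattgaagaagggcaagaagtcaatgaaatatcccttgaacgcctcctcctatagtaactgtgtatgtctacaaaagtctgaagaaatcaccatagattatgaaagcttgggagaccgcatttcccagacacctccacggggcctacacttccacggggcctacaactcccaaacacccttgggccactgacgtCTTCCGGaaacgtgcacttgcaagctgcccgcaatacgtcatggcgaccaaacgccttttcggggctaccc
MRPL19: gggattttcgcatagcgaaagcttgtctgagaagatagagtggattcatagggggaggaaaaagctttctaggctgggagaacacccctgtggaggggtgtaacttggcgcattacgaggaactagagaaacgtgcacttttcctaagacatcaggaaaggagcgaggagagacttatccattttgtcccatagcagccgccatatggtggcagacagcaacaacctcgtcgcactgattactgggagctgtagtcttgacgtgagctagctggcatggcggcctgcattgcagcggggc
MRPL32: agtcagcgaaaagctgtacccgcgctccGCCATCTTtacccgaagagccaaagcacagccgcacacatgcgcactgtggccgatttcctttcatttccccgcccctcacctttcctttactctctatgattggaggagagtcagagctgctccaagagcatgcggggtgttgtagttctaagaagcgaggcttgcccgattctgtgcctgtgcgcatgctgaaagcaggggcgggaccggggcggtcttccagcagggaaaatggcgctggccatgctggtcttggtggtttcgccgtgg
MRPS6: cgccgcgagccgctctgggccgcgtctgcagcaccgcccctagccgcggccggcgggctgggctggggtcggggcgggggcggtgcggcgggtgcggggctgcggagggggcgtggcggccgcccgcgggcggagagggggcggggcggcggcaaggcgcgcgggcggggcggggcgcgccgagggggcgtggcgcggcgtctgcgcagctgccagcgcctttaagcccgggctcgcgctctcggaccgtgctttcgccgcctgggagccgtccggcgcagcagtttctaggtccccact
MRPL52: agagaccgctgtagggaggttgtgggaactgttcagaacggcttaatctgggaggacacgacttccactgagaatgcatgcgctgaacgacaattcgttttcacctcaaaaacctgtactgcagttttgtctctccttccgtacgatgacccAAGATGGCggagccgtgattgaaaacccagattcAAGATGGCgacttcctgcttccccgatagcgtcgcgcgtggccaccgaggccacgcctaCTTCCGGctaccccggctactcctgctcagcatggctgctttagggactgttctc
In the MRPL52 window an ETS match begins 5 bases before the start, and YY1 matches begin 64 and 98 bases before it. In the MRPL54 window an ETS match begins 21 bases before the start, and in the MRPL32 window a YY1 match begins 222 bases before it. These are RefSeq starts, which can differ from the GENCODE starts used for distances between genes. The GENCODE start of MRPL32, chr7:42932200, lies within its window upstream of the RefSeq start but after the YY1 match. That of MRPS6, chr21:34073224, lies upstream of its whole window. In the windows of MRPL19 and MRPS6 none of these letters was found, although MRPL19 was among the highest genes and MRPS6 among the lowest. The share of G or C was 82.0% in the MRPS6 window, 58.3% in that of MRPL32, 52.3% in that of MRPL19 and 47.3% in that of MRPL54. Among the 8 highest ratios, the windows available ran from 43.3% (MRPL48) to 77.0% (MRPS2). The median was 60.3% over the 67 windows, against 65.7% over genes compared, and its relation to the ratios was not tested.

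For some of these genes the tags may belong in part to another gene. MRPS6 is listed with the same 186 and 167 CPM as SLC5A3 and AP000318.2, so the value of this low gene cannot be told apart from theirs. A start of MRPS17 lies within 50 bp of one of GBAS, which had 152 and 168 CPM. MRPS17 had 80.7 and 92.4 CPM, and a second row of the same symbol had 2.58 and 1.57 CPM. Without MRPL12, MRPS6 and MRPS17, 68 of 73 genes were higher with a median of 0.21. Pseudogenes named after these genes had 8 rows, 4 of them at 0 in both libraries, and the highest of the others, MRPS36P1, had 5.62 and 5.15 CPM. Near-identical stretches elsewhere in the annotation, of at least 100 nt with at least 95% identity to the first 500 nt of a transcript, were found for 13 of 74 genes searched. Of the genes with values given above, these were MRPL48 (95.2% identity over 165 nt), MRPL38 (95.2% over 105 nt), MRPL35 (95.3% over 233 nt), MRPL36 (97.1% over 312 nt), MRPS18C (95.5% over 286 nt) and MRPL10, with 22 such stretches, the longest of 101 nt at 96.0%. It is uncertain whose tags these are. Of the 61 genes without such a stretch, 56 were higher, with a median of 0.21 and 17 at least 25% higher.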

How the data were processed

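CAGE libraries were made from 1 culture of non-treated and 1 of M2BPGi-treated PLC/PRF/5 cells. Ribosomal tags were dropped, the rest were aligned by BWA and 5′ ends were clustered by CAGEr, after which the authors deposited gene values in CPM with 2 decimals. The paper's methods name a mouse genome and the submitters' processing notes hg19, BWA and HISAT2, while the gene identifiers are of human genes. The assignment of tags to genes is not given in the sources used here.

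Within the rounding, 100% of values above 0 were whole multiples of 1 tag, with 1 possible total per library. The share within 0.1 of a tag, 83.2% and 80.4%, is what 2 decimals leave of whole tags and says nothing against them. A share of this kind, taken over low values, was below the limit set for treating CPM as recovered counts, so the planned binomial test was left out, and the totals were used for intervals alone. Ratios were log2 with a pseudocount of 1 CPM over genes with a mean of at least 1 CPM. The ratios and intervals were tested on simulated data. Members and lists were chosen with earlier results of these data known. Named members, of those with a mean of at least 10 CPM, were the 8 highest and 8 lowest ratios, the 5 most abundant and 3 structural groups, with 2 highest and 2 lowest of other lists, all regulators, all subunits without an MRP symbol and the MRPS18 genes. MRPL35, MRPS15, MRPS30, MRPS31, MRPL53, MRPS34, MRPS36, MRPL55, MRPL21, MRPL36, MRPS11, MRPS17, MRPL43, MRPL51, MRPS25 and the neighbouring genes were named after their values were seen. Annotation was GENCODE v29 (GRCh38), possibly not the authors' build. Alternatives were other pseudocounts, filters, scalings and a fold of 1.5, sums of rows, and genes without listed pseudogenes. A trimmed-mean scaling and genes without near-identical copies (BLAST+ 2.17.0) or shared starts, and subunits by place, were added after seeing the data. Python 3.11.15, scipy 1.17.1 and numpy 2.4.6 were used.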

Additional observations from a re-analysis of the deposited data

How the results depend on the processing

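No paired analysis was possible because there was 1 library per condition, and for the same reason no library could be left out. The edgeR TMM factors and the binomial test were planned but left out, as the values were kept as CPM and not taken as counts. This is no finding against whole tags, which fit 100% of values within the rounding. Over all alternatives run, the median log2 ratio of the mitochondrial ribosomal protein genes lay between 0.20 and 0.27, and 0 genes were at least 20% lower. With a threshold of 1.5-fold, 5 genes in place of 21 were higher. With the libraries rescaled so that all genes had a median of 0, which added 0.06 to the log2 ratios, the log2 ratio of the summed CPM was 0.27 in place of 0.22, and 0.27 with the trimmed mean as well. The same rescalings gave MRPL4 a log2 ratio of 0.028 in both cases in place of -0.03, which follows from the amount added. Single ratios were followed for 32 mitochondrial ribosomal protein genes, and only pseudocounts and rescalings moved them. Of their 64 values under the 2 other pseudocounts, 0 moved by more than the half-width of their counting interval. Of 64 under the 2 rescalings, 14 did, and 2 others, both of MRPL4, changed sign within the half-width. The 2 rescalings added almost the same amount, 0.0574 and 0.0575, and so moved the same genes. Those that moved had a half-width below this amount, so their number follows from the tag numbers of the genes. Other genes changed sign as well after rescaling to the median, such as MRPL35 (0.05), DAP3 (0.03) and YY1 (0.00). Of all 76 genes, 4 were then below 0 in place of 6. The half-widths of the counting intervals of single genes ran from 0.03 to 0.27 on the log2 scale, so the depth limits the less abundant genes most.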
